A study of Mus musculus with 3 samples.

Results

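Bex4, Gpc3, Bicc1, Mme, Sgpp2, Steap2, Acoxl, Ptgs1, Egfl6 and Fabp5 are 10 of the 32287 features counted in mouse lung cells of 3 genetic lineages after bleomycin injury. They were chosen from measured values, because their UMIs (unique molecular identifiers, which count captured RNA molecules) were more frequent in alveolar type 2 (AT2) cells of AT2 lineage than in AT2 cells of club lineage. That contrast is therefore a description here and supports nothing. The genes were followed in AT2 cells of each library, in AT2 cells with little or much Lyz1, and in transitional, AT1 and airway cells.

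Each lineage was sorted by colour from dissociated whole lung and made into 1 droplet library with 5′ chemistry. The AT2-Tracer library held ZsGreen+ cells, the BASC-Tracer library cells with both ZsGreen and tdTomato, and the Club-Tracer library tdTomato+ cells. All libraries came from mice of the genotype Scgb1a1-CreER;Sftpc-DreER;R26-TLR, 4 weeks after bleomycin, so a CreER driven by Scgb1a1, a DreER driven by Sftpc, the R26-TLR reporter and the injury are shared by every group, and no uninjured lung is analysed here. The number, age and sex of the mice are not given in the sources used here. With 1 library for each lineage there was no replicate check, no test between lineages was possible, and lineage cannot be told apart from animal, sort gate or library.

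AT2 cells make and recycle surfactant, the lipid and protein film that keeps air spaces open, and after injury they divide and give rise to the flat AT1 cells of gas exchange, partly through a Krt8-rich transitional state. Club cells are secretory cells of the small airways, and cells at the bronchioalveolar junction that express both Scgb1a1 and Sftpc are called bronchioalveolar stem cells (BASCs). Lyz1, a lysozyme gene, is expressed in some mouse AT2 cells and not in others.

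The 10 genes have unlike roles. At the cell surface and in the matrix stand Gpc3, a heparan sulfate proteoglycan of the glypican family that restrains Hedgehog signalling, Mme (neprilysin), a membrane peptidase that cleaves small signalling peptides, and Egfl6, a secreted protein with EGF repeats. Lipid mediators are the substrates or products of Ptgs1 (cyclooxygenase 1), which makes the precursor of prostaglandins, and of Sgpp2, a phosphatase of sphingosine 1-phosphate. Acoxl belongs by sequence to the peroxisomal acyl-CoA oxidases, and Fabp5 carries fatty acids inside the cell. Steap2 is a metalloreductase of iron and copper. Bicc1 is an RNA-binding protein known from kidney tubules, and Bex4 is a small adaptor protein of the Bex family. On GRCm38 all are protein-coding genes. Bex4 (chrX:136138996-136140443, forward strand), Gpc3 (chrX:52272426-52613950, reverse) and Egfl6 (chrX:166523007-166585720, reverse) lie on the X chromosome. Acoxl (chr2:127838876-128123873, forward) and Ptgs1 (chr2:36230426-36252272, forward) lie on chromosome 2, and Mme (chr3:63241537-63386030, forward) and Fabp5 (chr3:10012548-10016607, forward) on chromosome 3. Sgpp2 lies at chr1:78310345-78420289 (forward), Steap2 at chr5:5664829-5694578 (reverse) and Bicc1 at chr10:70922832-71159700 (reverse).

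RefSeq promoter windows on GRCm38.p6 were matched for 8 of the 10 genes, the exceptions being Bicc1 and Fabp5. The 4 windows below, each of 250 bases before a RefSeq start and printed 5′ to 3′ on the gene's strand, are shown because these genes cover the range of patterns described further on, from Bex4 and Gpc3, with the widest ratios between lineages, to Ptgs1, found in several cell classes, and Acoxl, with next to no UMIs in transitional-like and AT1-like cells. The Acoxl window lies inside the Acoxl locus given above. It therefore precedes an internal start and not the first base of that locus. Capitals mark the GC box (GGGCGG, or CCGCCC on the other strand) in Bex4 (chrX:136138746-136138995, forward) and Gpc3 (chrX:52613975-52614224, reverse), the NKX2-1 core (CTCAAG or CTTGAG) in Ptgs1 (chr2:36230176-36230425, forward) and the C/EBP core (TTNNGNAA or TTNCNNAA) in Acoxl (chr2:127854378-127854627, forward).
Bex4: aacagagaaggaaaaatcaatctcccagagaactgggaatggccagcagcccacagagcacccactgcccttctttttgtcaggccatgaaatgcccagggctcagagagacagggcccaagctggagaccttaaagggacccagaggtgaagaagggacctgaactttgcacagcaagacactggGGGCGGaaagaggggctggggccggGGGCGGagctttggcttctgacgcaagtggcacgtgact
Gpc3: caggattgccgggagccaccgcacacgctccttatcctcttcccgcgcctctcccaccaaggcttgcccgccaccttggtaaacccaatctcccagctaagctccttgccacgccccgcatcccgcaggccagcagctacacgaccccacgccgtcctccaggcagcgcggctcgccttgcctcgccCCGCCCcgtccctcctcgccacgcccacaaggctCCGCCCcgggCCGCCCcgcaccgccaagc
Ptgs1: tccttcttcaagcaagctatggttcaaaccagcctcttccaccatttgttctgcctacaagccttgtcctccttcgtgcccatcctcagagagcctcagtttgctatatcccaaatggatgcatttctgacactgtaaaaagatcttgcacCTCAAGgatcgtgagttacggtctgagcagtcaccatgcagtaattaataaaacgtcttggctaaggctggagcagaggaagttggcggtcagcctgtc
Acoxl: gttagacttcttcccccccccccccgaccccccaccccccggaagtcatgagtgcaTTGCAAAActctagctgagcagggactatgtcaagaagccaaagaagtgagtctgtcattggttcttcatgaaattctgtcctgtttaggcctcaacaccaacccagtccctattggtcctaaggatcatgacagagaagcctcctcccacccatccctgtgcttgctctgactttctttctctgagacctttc
Both strands were searched, and none of the matches in capitals overlapped a match of another motif searched. The windows share no single motif. Of the 6 genes with 1 window each, 4 held a GC box, against 32.9% of 27025 promoters, 3 held a CCAAT box (CCAAT or ATTGG), against 34.5%, 1 held the NKX2-1 core, against 13.6%, and 1 the C/EBP core, against 36.9%. None of the 6 held the GATA core (AGATAA or TTATCT; 10.3% of promoters), the AP-1 letters (TGANTCA; 6.87%), the TATA box (TATAAA or TTTATA; 12.97%) or the forkhead core (TGTTTAC or GTAAACA; 3.09%). The ETS core (CCGGAAG or CTTCCGG; 7.05%) and the TEAD core (GGAATG or CATTCC; 12.6%) were found in 1 of the 6 each. CpG content varied as widely, with 25 CpG in the Gpc3 window, 24 in that of Sgpp2, 15 in that of Egfl6, 5 in those of Bex4 and Ptgs1 and 2 in that of Acoxl, against a median of 6 over all promoters. A match is a string of letters and not a site of binding.

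AT2 cells were taken as cells with at least 4% of UMIs from Sftpc, at least 5000 UMIs and at most 15% mitochondrial UMIs. Such cells numbered 1360 (AT2-Tracer), 254 (BASC-Tracer) and 346 (Club-Tracer), with medians of 18434, 31981 and 25931.5 UMIs. Total deposited UMIs were 72256580, 29013077 and 62570890. Of the AT2 markers 12 of 12 stood at 50 CPM (a gene's UMIs scaled to the same total for every class) or more in each library. Sftpc, at 99765, 88656 and 92246 CPM, was fixed by the rule above and is no check of identity. Markers of other types passed 50 CPM too, among them 9 of 11 transitional markers in each library. In AT2-Tracer, BASC-Tracer and Club-Tracer AT2 cells 8, 6 and 5 of 13 AT1 markers did, and 3, 6 and 8 of 11 club markers. Reporter RNA followed the sort, with ZsGFP at 7365, 8986 and 42.4 CPM and tdT at 0.752, 1649 and 1226 CPM. RNA of the airway gene Scgb1a1 ran against the 10 genes, at 59.0, 9321 and 42262 CPM, and the 11 club markers together at 1486, 13638 and 49182 CPM. With each cell thinned at random to 5000 UMIs, the median AT2 cell held 0, 5 and 47.5 UMIs of Scgb1a1 in these libraries. In BASC-Tracer and Club-Tracer AT2 cells the summed Scgb1a1 level therefore lies above that of the median cell. The 13 AT1 markers summed to 3818, 2606 and 2187 CPM, the 11 transitional markers to 4090.4, 2798 and 2829 CPM, the 6 dendritic markers, which include MHC class II genes, to 5738, 3202 and 2442 CPM, the 6 proliferation markers to 219, 181 and 97.4 CPM, and the macrophage markers without Lyz2 to 198, 48.8 and 25.03 CPM. Whether these differences take part in the results below was not tested. Barcode sequences shared between libraries numbered 94 (AT2-Tracer and BASC-Tracer), 122 (AT2-Tracer and Club-Tracer) and 73 (BASC-Tracer and Club-Tracer), of which 13, 21 and 5 passed the filters in both.

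In AT2 cells every one of the 10 genes stood highest in AT2-Tracer cells and lowest in Club-Tracer cells, with BASC-Tracer cells between. All 10 were at least 2-fold higher in AT2-Tracer than in Club-Tracer AT2 cells, as their choice required, where 4.15% of the 2895 genes at 50 CPM or more in either were (2.35% were 2-fold lower). Their ratios ran from 2.46 (Egfl6) to 36.5 (Bex4), with a median log2 ratio of 3.10 against 0.16 for all genes. Intervals given with levels and ratios are exact 95% intervals that cover counting error only, and leave out variation between cells and between animals.

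Among the surface and matrix genes, Gpc3 stood at 84.4 CPM in AT2-Tracer AT2 cells, 38.4 CPM in BASC-Tracer AT2 cells and 4.56 CPM in Club-Tracer AT2 cells. Its AT2-Tracer to Club-Tracer ratio was 18.5 (13.6 to 25.9). Mme stood at 162 CPM in AT2-Tracer, 74.0 CPM in BASC-Tracer and 15.2 CPM in Club-Tracer AT2 cells, a ratio of 10.6 (8.95 to 12.7) between the outer libraries. Egfl6 was the least apart, at 392 CPM in AT2-Tracer, 258 CPM in BASC-Tracer and 159 CPM in Club-Tracer AT2 cells. After each cell was thinned to 5000 UMIs, Egfl6 was seen in 75.9% of AT2-Tracer, 62.2% of BASC-Tracer and 49.4% of Club-Tracer AT2 cells (92.7%, 85.8% and 78.9% unthinned), and in 3.002% of Club-Tracer club-like cells.

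The lipid genes kept the same order. Ptgs1 stood at 372 CPM in AT2-Tracer, 184 CPM in BASC-Tracer and 72.7 CPM in Club-Tracer AT2 cells, and its AT2-Tracer to Club-Tracer ratio was 5.12 (4.73 to 5.55). Sgpp2 stood at 108, 48.0 and 11.6 CPM in the AT2-Tracer, BASC-Tracer and Club-Tracer AT2 cells, a ratio of 9.35 (7.69 to 11.5). Acoxl stood at 81.5 CPM in AT2-Tracer, 37.7 CPM in BASC-Tracer and 11.1 CPM in Club-Tracer AT2 cells. Fabp5 stood at 271 CPM in AT2-Tracer, 147 CPM in BASC-Tracer and 56.7 CPM in Club-Tracer AT2 cells. Club-like cells of the Club-Tracer library held less of both, 1 UMI of Acoxl in 1066 cells and 3.12 CPM of Fabp5.

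Of the remaining genes, the metalloreductase Steap2 stood at 85.1 CPM in AT2-Tracer, 44.8 CPM in BASC-Tracer and 10.8 CPM in Club-Tracer AT2 cells. Bicc1 stood at 60.3 CPM in AT2-Tracer, 24.3 CPM in BASC-Tracer and 6.34 CPM in Club-Tracer AT2 cells. Bex4 had the widest gap of the 10, with 134 CPM (3565 UMIs) in AT2-Tracer, 56.0 CPM (465 UMIs) in BASC-Tracer and 3.67 CPM (33 UMIs) in Club-Tracer AT2 cells, a ratio of 36.5 (25.9 to 53.1) between the outer libraries. After thinning it was seen in 39.5% of AT2-Tracer, 18.1% of BASC-Tracer and 1.45% of Club-Tracer AT2 cells (70.6%, 34.3% and 5.20% unthinned). In club-like cells of the Club-Tracer library the thinned share was 1.501% (median depth 21019 UMIs), close to that of Club-Tracer AT2 cells, while the level was 3.67 CPM in the AT2 and 1.52 CPM in the club-like cells, a ratio of 2.41 (1.47 to 3.94). How much of the Club-Tracer Bex4 level is free RNA was not tested. In the AT2-Tracer library the share among leukocytes, clusters in which Ptprc exceeded Epcam, was 0.577% for Bex4 (median depth 9871 UMIs).

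The shares of AT2 cells in which the other genes were seen after thinning kept the order of the libraries. They were 28.9%, 11.02% and 0.867% for Gpc3 in AT2-Tracer, BASC-Tracer and Club-Tracer AT2 cells (58.4%, 31.1% and 5.78% unthinned), and 0.281% in Club-Tracer club-like cells. Mme was seen in 48.2%, 24.02% and 6.36% of AT2 cells in the same order of libraries (78.5%, 51.2% and 19.4% unthinned). Its Club-Tracer share had an exact Clopper-Pearson 95% interval of 4.03% to 9.47%, which holds the 5.44% of Club-Tracer club-like cells. Club-like cells are not a plain background for Mme, since they held it at 24.4 CPM in the BASC-Tracer and 9.91 CPM in the Club-Tracer library. Acoxl was seen in 26.8%, 15.7% and 4.34% of AT2 cells (50.5%, 38.6% and 13.9% unthinned) and in 0 of 1066 Club-Tracer club-like cells, so its Club-Tracer share lies above that background. Ptgs1 was seen in 71.99%, 43.7% and 28.3% of AT2 cells (90.4%, 87.4% and 63.01% unthinned) and in 10.6% of Club-Tracer club-like cells. For Sgpp2, Steap2, Bicc1 and Fabp5 the Club-Tracer shares ran from 2.60% (Bicc1) to 10.4% (Fabp5) in AT2 cells and from 0.375% (Sgpp2) to 0.938% (Fabp5) in club-like cells.

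**Figure D1:**
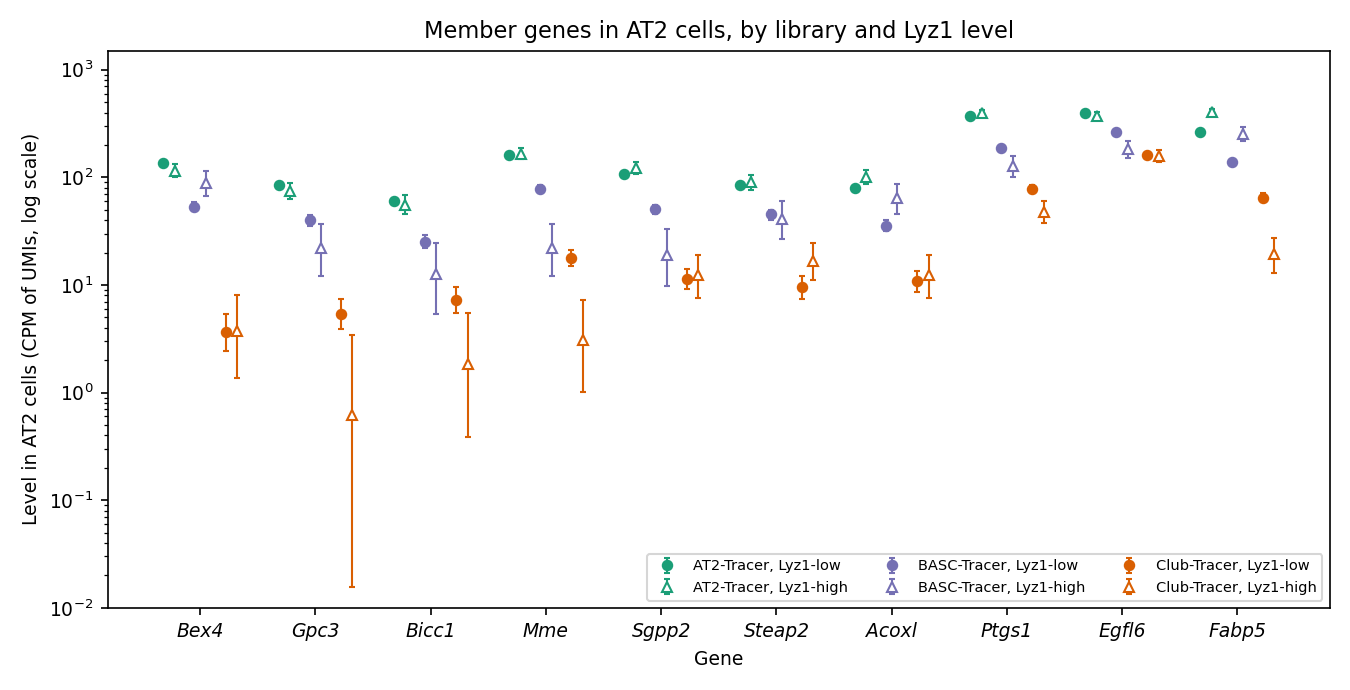
Level of each gene in AT2 cells (CPM of UMIs, log axis) by library (AT2-Tracer, BASC-Tracer and Club-Tracer from left to right within each gene), with Lyz1-low cells as filled circles and Lyz1-high cells as open triangles. Bars are exact Poisson 95% intervals of counting error. Each gene steps down from AT2-Tracer to BASC-Tracer to Club-Tracer cells, while the 2 AT2-Tracer symbols lie close together for all genes but Fabp5 (261 and 404 CPM).

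The comparison with the BASC-Tracer library shares its AT2-Tracer side with the contrast on which the genes were chosen, and the choice was made with earlier results of these data known, so it is no independent support. In AT2 cells 7 of the 10 genes were at least 2-fold higher in the AT2-Tracer than in the BASC-Tracer library, against 0.846% of 2955 genes (25 genes), and none was 2-fold lower, against 1.22%. The 7 were Bicc1 (2.48-fold, 2.14 to 2.88), Bex4 (2.39), Sgpp2 (2.26), Gpc3 (2.20), Mme (2.19), Acoxl (2.16) and Ptgs1 (2.03). Steap2 (1.90, 1.70 to 2.13), Fabp5 (1.85, 1.74 to 1.96) and Egfl6 (1.52, 1.45 to 1.59) lay below 2-fold. The median log2 ratio of the 10 was 1.12, against 0.03 for all genes. The ratios sat close to the 2-fold line: on a scale with 20 CPM added to both levels, 1 of the 10 passed it. Set side by side with these, the BASC-Tracer to Club-Tracer ratios of the same genes ran from 1.62 (Egfl6) to 15.3 (Bex4). There 9 of the 10 were at least 2-fold higher in BASC-Tracer AT2 cells, against 0.847% of 2833 genes (0.459% were 2-fold lower), although only 5 of the 10 reached 50 CPM in that comparison, 4 of them past 2-fold. The comparisons share libraries, so they are not separate readings.

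The level of Lyz1 within the AT2-Tracer library did not separate these genes by 2-fold. Of its AT2 cells 1270 had under 0.1% of UMIs from Lyz1 and 90 had more, with Lyz1 at 18.7 and 7058 CPM. None of the 10 genes was 2-fold higher in the Lyz1-low cells (0.277% of 2892 genes were), and none was 2-fold lower (0.0692%). The ratios of Lyz1-low to Lyz1-high cells ran from 0.647 (Fabp5) to 1.17 (Bex4), with a median log2 ratio of -0.06 against 0.06 for all genes. Fabp5 stood at 261 CPM in Lyz1-low and 404 CPM in Lyz1-high cells, a ratio of 0.647 (0.599 to 0.700), and Acoxl at 80.0 CPM in Lyz1-low and 102 CPM in Lyz1-high cells, a ratio of 0.788 (0.676 to 0.922). Bex4 stood at 135 CPM in Lyz1-low and 116 CPM in Lyz1-high cells, a ratio of 1.17 (1.02 to 1.35). For the other 7 genes the counting interval of the ratio held 1. Both groups come from 1 library, and their cells are not replicates.

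The Lyz1-high AT2 cells were also compared alone. They are a subset of the cells on which the genes were chosen, so the direction is fixed by the choice and the values are a description. All 10 genes were at least 2-fold higher in AT2-Tracer Lyz1-high cells (n = 90 cells) than in Club-Tracer Lyz1-high cells (n = 55 cells), against 5.27% of 2866 genes (2.62% were 2-fold lower). The peptidase gene Mme had 297 UMIs (166 CPM) in the AT2-Tracer and 5 UMIs (3.10 CPM) in the Club-Tracer Lyz1-high cells, a ratio of 53.5 (22.7 to 166). Gpc3 had 135 UMIs in the AT2-Tracer and 1 UMI in the Club-Tracer Lyz1-high cells, a ratio of 122 (21.5 to 4840) that rests on that single UMI. Bicc1 had 100 UMIs in the AT2-Tracer and 3 in the Club-Tracer Lyz1-high cells, a ratio of 30.0 (9.99 to 148). Fabp5 stood at 404 CPM in AT2-Tracer and 19.2 CPM in Club-Tracer Lyz1-high cells, a ratio of 21.0 (14.7 to 31.2). Egfl6 was again the least apart, at 375 CPM in AT2-Tracer and 157 CPM in Club-Tracer Lyz1-high cells, a ratio of 2.38. The median log2 ratio of the 10 was 3.85, against 0.10 for all genes.

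In the BASC-Tracer library the Lyz1-high class held 17 AT2 cells, so its values rest on few cells. Against it, 7 of the 10 genes were at least 2-fold higher in the AT2-Tracer Lyz1-high cells, where 3.95% of 2914 genes were (2.23% were 2-fold lower). Mme stood at 166 CPM in AT2-Tracer and 21.9 CPM in BASC-Tracer Lyz1-high cells, and Sgpp2 at 123 CPM in AT2-Tracer and 18.8 CPM in BASC-Tracer Lyz1-high cells. Bex4 (116 and 89.3 CPM in the AT2-Tracer and BASC-Tracer Lyz1-high cells), Fabp5 (404 and 254 CPM) and Acoxl (102 and 64.2 CPM) were closer, with ratios of 1.29, 1.59 and 1.58. In Lyz1-low cells, 10 of the 10 genes were 2-fold higher in AT2-Tracer than in Club-Tracer cells (4.18% of all genes, with 2.17% lower), and 6 of the 10 were 2-fold higher in AT2-Tracer than in BASC-Tracer cells (0.773%, with 1.18% lower).

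Within the other libraries the Lyz1 split gave unlike values. In BASC-Tracer AT2 cells, 3 of the 10 genes were 2-fold higher in the 237 Lyz1-low than in the 17 Lyz1-high cells, against 1.63% of 2936 genes higher and 0.545% lower. They were Mme (78.3 CPM in Lyz1-low and 21.9 CPM in Lyz1-high cells), Sgpp2 (50.4 and 18.8 CPM) and Bicc1 (25.3 and 12.5 CPM), with 14, 12 and 8 UMIs in the Lyz1-high cells. Bex4, Acoxl and Fabp5 stood lower in the Lyz1-low cells, with ratios of 0.596 (0.451 to 0.801), 0.553 (0.397 to 0.787) and 0.543 (0.459 to 0.644). In Club-Tracer AT2 cells, 4 of the 10 were 2-fold higher in the 291 Lyz1-low than in the 55 Lyz1-high cells, against 0.157% of 2555 genes in each direction, but 1 of the 4, Fabp5, reached 50 CPM. Fabp5 stood at 64.9 CPM in Lyz1-low and 19.2 CPM in Lyz1-high Club-Tracer cells, a ratio of 3.38 (2.35 to 5.03). Gpc3, Mme and Bicc1 rested on 1, 5 and 3 UMIs in the Lyz1-high cells.

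**Figure D2:**
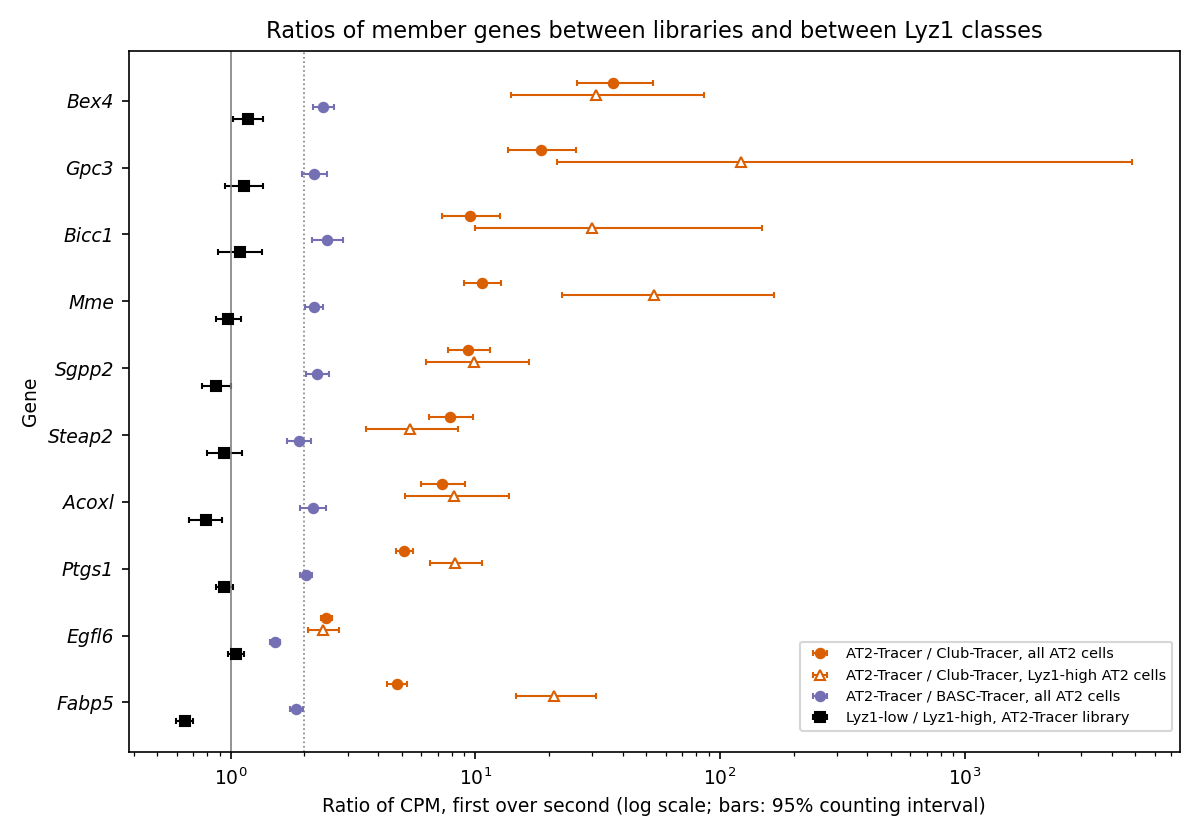
Ratio of CPM for each gene (log axis; bars are exact conditional 95% counting intervals; solid line at 1, dotted line at 2). AT2-Tracer over Club-Tracer ratios (orange circles for all AT2 cells, open triangles for Lyz1-high cells) lie right of 2 for all 10 genes, AT2-Tracer over BASC-Tracer ratios (purple) run from 1.52 to 2.48, and Lyz1-low over Lyz1-high ratios within the AT2-Tracer library (black squares) from 0.647 to 1.17.

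The next comparison asked where else in the AT2 lineage the genes were found. Transitional-like, AT1-like and other classes were clusters named from marker genes and limited to cells with at least 5000 UMIs. The clusters were built from all variable genes, so the values describe them. The 10 genes were chosen on their levels in AT2-Tracer AT2 cells, most of which form the Lyz1-low group used here. Their excess over all genes is therefore partly set by the choice. In the AT2-Tracer library, 8 of the 10 genes were at least 2-fold higher in Lyz1-low AT2 cells than in the 466 transitional-like cells, against 7.35% of 3740 genes (17.4% were 2-fold lower). Bicc1 (60.6 CPM in AT2 and 39.0 CPM in transitional-like cells, a ratio of 1.55) and Steap2 (84.7 and 63.7 CPM, a ratio of 1.33) were not. Against the 417 AT1-like cells 7 of the 10 were 2-fold higher in Lyz1-low AT2 cells, where 6.13% of 3766 genes were (19.4% were 2-fold lower). The median log2 ratio of the 10 was 1.94 over transitional-like and 1.84 over AT1-like cells, against -0.41 for all genes in both comparisons.

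Within that range the genes fell into unlike patterns. Acoxl had the widest gap, at 80.0 CPM in Lyz1-low AT2 cells, 1.10 CPM (10 UMIs) in transitional-like and 1.26 CPM (6 UMIs) in AT1-like cells. Its AT2 ratios were 73.0 (39.6 to 152) over transitional-like and 63.3 (29.0 to 173) over AT1-like cells. Those of Sftpc were 26.7 and 26.8. AT2 cells were taken by their Sftpc share, so the Sftpc ratios are partly set by that rule. Sgpp2 stood at 107 CPM in Lyz1-low AT2, 5.81 CPM in transitional-like and 20.4 CPM in AT1-like cells. Mme stood at 161 CPM in Lyz1-low AT2, 21.3 CPM in transitional-like and 51.2 CPM in AT1-like cells, and Gpc3 at 85.0, 15.1 and 20.9 CPM in the same order of classes. Over transitional-like cells Acoxl was the 1 gene of the 10 with a wider ratio than Sftpc. Over AT1-like cells Acoxl and Fabp5 had wider ratios. Because of the Sftpc rule these comparisons are descriptions and do not measure how far a gene is limited to AT2 cells.

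Among the other genes, Ptgs1, Bex4, Steap2 and Bicc1 had AT2 ratios of 2.58 or less over transitional-like and 2.02 or less over AT1-like cells. Ptgs1 stood at 371 CPM in Lyz1-low AT2, 144 CPM in transitional-like and 282 CPM in AT1-like cells, so its AT2 ratio over AT1-like cells was 1.31 (1.24 to 1.39). Bex4 stood at 135 CPM in Lyz1-low AT2, 57.2 CPM in transitional-like and 68.3 CPM in AT1-like cells. Steap2 stood at 84.7, 63.7 and 41.9 CPM in Lyz1-low AT2, transitional-like and AT1-like cells, and Bicc1 at 60.6, 39.0 and 37.5 CPM. Egfl6 stood at 393 CPM in Lyz1-low AT2, 128 CPM in transitional-like and 55.8 CPM in AT1-like cells. Fabp5 differed most between them, at 261 CPM in Lyz1-low AT2, 54.6 CPM in transitional-like and 5.27 CPM (25 UMIs) in AT1-like cells. An unnamed cluster led by Sprr1a, Phlda3 and Cdkn1a kept 330 of its 657 AT2-Tracer cells under the UMI and Sftpc limits. Those cells held Bex4 at 137 CPM and Mme at 100.5 CPM, but Acoxl at 10.4 CPM and Gpc3 at 13.9 CPM.

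**Figure D3:**
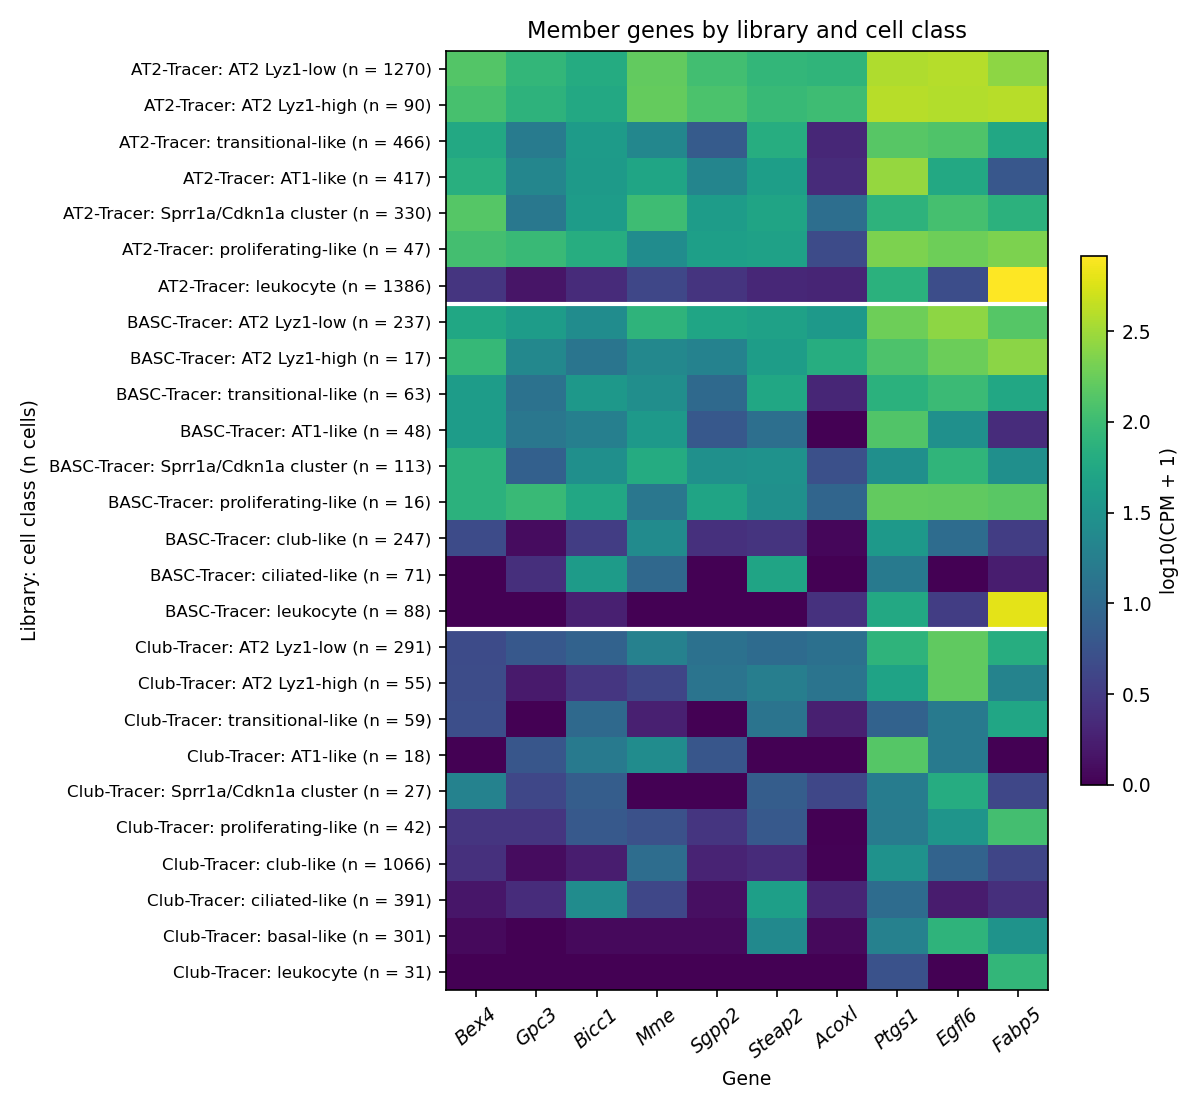
Level of each gene (log10 of CPM + 1, colour scale at right) in each library and cell class with at least 15 cells, with white lines between the libraries. AT2 rows of the AT2-Tracer library are bright for all 10 genes, Acoxl is dark in transitional-like and AT1-like rows, and Fabp5 is brightest in the leukocyte row of the AT2-Tracer library at 822 CPM.

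In transitional-like cells (466 AT2-Tracer, 63 BASC-Tracer and 59 Club-Tracer cells), 8 of the 10 genes were at least 2-fold higher in the AT2-Tracer than in the Club-Tracer library, against 2.03% of 3802 genes (2.6% were 2-fold lower). Only 5 of the 10 reached 50 CPM there, and 4 of those 5 passed 2-fold. Ptgs1 stood at 144 CPM in AT2-Tracer, 72.7 CPM in BASC-Tracer and 7.29 CPM in Club-Tracer transitional-like cells, an AT2-Tracer to Club-Tracer ratio of 19.7 (10.4 to 43.3). Bex4 stood at 57.2, 40.3 and 4.05 CPM in the same libraries, and Egfl6 at 128, 97.1 and 14.6 CPM. Gpc3 and Sgpp2 had 0 UMIs in Club-Tracer transitional-like cells. Set against the 3 UMIs that a count of 0 allows, their AT2-Tracer levels were at least 6.23-fold and at least 2.39-fold higher. Fabp5 was at 54.6 CPM in AT2-Tracer, 55.2 CPM in BASC-Tracer and 52.6 CPM in Club-Tracer transitional-like cells, so its AT2-Tracer to Club-Tracer ratio was 1.04 (0.7998 to 1.37). Acoxl had 10, 2 and 1 UMIs in these libraries, too few to compare. Sftpc moved with the 8 genes, at 3715 CPM in AT2-Tracer, 3326 CPM in BASC-Tracer and 466 CPM in Club-Tracer transitional-like cells, and its part in the result was not tested. Between AT2-Tracer and BASC-Tracer transitional-like cells none of the 10 genes reached 2-fold in either direction, where 0.34% of 3820 genes were 2-fold higher and 0.916% 2-fold lower, and Ptgs1 came closest at 1.98 (1.66 to 2.38). Mme (21.3 CPM in AT2-Tracer and 26.5 CPM in BASC-Tracer transitional-like cells) and Sgpp2 (5.81 and 9.02 CPM) stood lower in the AT2-Tracer library, and the counting interval of the ratio held 1 for all but Bex4, Ptgs1 and Egfl6.

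AT1-like cells were scarce outside the AT2-Tracer library, with 417 AT2-Tracer, 48 BASC-Tracer and 18 Club-Tracer cells. Against the Club-Tracer cells 8 of the 10 were 2-fold higher (4.78% of genes higher, 3.24% lower), 2 of them as bounds, and against the BASC-Tracer cells 6 of the 10 (1.08% higher, 1.05% lower), but the second groups held 0 to 28 and 0 to 99 UMIs of each gene. At 50 CPM or more stood 4 of the 10, of which 4 passed 2-fold against the Club-Tracer and 2 against the BASC-Tracer cells, and the counting intervals of the Club-Tracer ratios of Gpc3, Bicc1, Mme and Sgpp2 held 1. Ptgs1 stood at 282 CPM in AT2-Tracer, 131 CPM in BASC-Tracer and 141 CPM (28 UMIs) in Club-Tracer AT1-like cells. Bex4 stood at 68.3 CPM in AT2-Tracer and 39.8 CPM in BASC-Tracer AT1-like cells and had 0 UMIs in Club-Tracer AT1-like cells, which makes the AT2-Tracer level at least 4.53-fold higher. Proliferating-like cells numbered 47, 16 and 42 in the AT2-Tracer, BASC-Tracer and Club-Tracer libraries. Their cluster held 203, 27 and 47 cells before the UMI and Sftpc limits. In the proliferating-like cells 9 of the 10 genes were 2-fold higher in AT2-Tracer than in Club-Tracer cells. Of 3437 genes 12.5% were higher and 5.82% lower, although 6 of the 10 reached 50 CPM. Gpc3 stood at 93.6 CPM in AT2-Tracer, 92.9 CPM in BASC-Tracer and 1.84 CPM (3 UMIs) in Club-Tracer proliferating-like cells. Bex4 stood at 109, 74.3 and 1.84 CPM (3 UMIs), and Fabp5 at 219.6, 149 and 109 CPM, in the same libraries. Sftpc in these cells stood at 22302 CPM in AT2-Tracer, 14572 CPM in BASC-Tracer and 2521 CPM in Club-Tracer cells, and Scgb1a1 at 8.84, 30171 and 99918 CPM, and their part in these ratios was not tested.

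**Figure D4:**
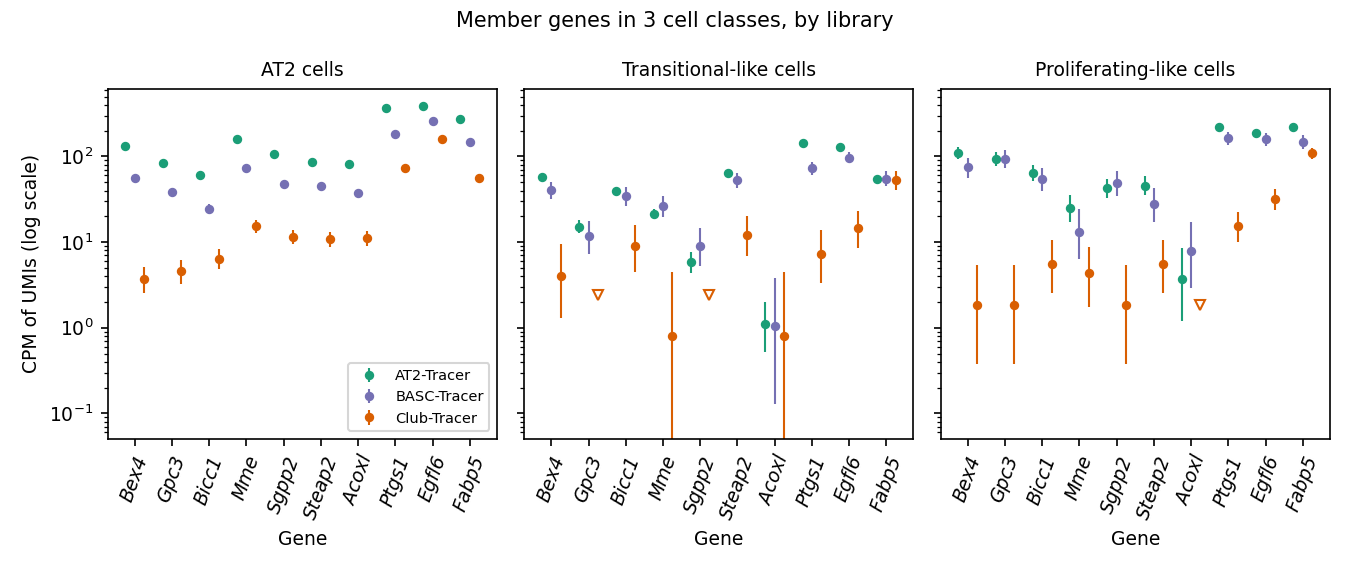
Level of each gene (CPM of UMIs, log axis; bars are exact Poisson 95% counting intervals) in AT2, transitional-like and proliferating-like cells of the AT2-Tracer, BASC-Tracer and Club-Tracer libraries. Open triangles pointing down mark 0 UMIs and sit at the level of 3 UMIs. Club-Tracer points lie lowest for most genes in each panel, and Fabp5 in transitional-like cells (54.6, 55.2 and 52.6 CPM) lies level.

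The genes were then set against airway cells of the same library. In the BASC-Tracer library all 10 genes were at least 2-fold higher in AT2 than in the 247 club-like cells, against 10.1% of 2939 genes (5.04% were 2-fold lower), although 5 of the 10 reached 50 CPM, with ratios from 3.03 (Mme) upwards. In the Club-Tracer library 9 of the 10 were at least 2-fold higher in AT2 than in the 1066 club-like cells, against 11.7% of 2513 genes (4.18% were 2-fold lower), although 3 of the 10 reached 50 CPM. Egfl6 stood at 159 CPM in AT2 and 7.45 CPM in club-like cells of the Club-Tracer library, a ratio of 21.4 (18.4 to 25.01), and Fabp5 at 56.7 CPM in AT2 and 3.12 CPM in club-like cells. Gpc3 had 41 UMIs in AT2 and 6 UMIs in club-like cells there, a ratio of 19.5 (8.23 to 56.2). Mme was the exception, at 15.2 CPM in AT2 and 9.91 CPM in club-like cells, a ratio of 1.54 (1.24 to 1.90). Some of the genes were also found in other airway cells. In ciliated-like cells Bicc1 stood at 38.8 CPM in the BASC-Tracer and 25.1 CPM in the Club-Tracer library, and Steap2 at 49.8 and 43.1 CPM in those libraries. In both libraries these levels lay above those of AT2 cells. The gap was small for Steap2 in the BASC-Tracer library, where AT2 cells stood at 44.8 CPM. No counting interval was computed for ratios of ciliated-like to AT2 cells. In the 301 basal-like cells of the Club-Tracer library Egfl6 stood at 77.4 CPM, Fabp5 at 30.3 CPM and Steap2 at 23.2 CPM, while Bex4, Bicc1, Mme, Sgpp2 and Acoxl had 1 UMI each and Gpc3 had 0. Outside the epithelium, 20 AT2-Tracer cells of a fibroblast-marked cluster held Gpc3 at 305 CPM and Bicc1 at 174 CPM, while the 9 fibroblast and smooth muscle markers together stood at 3.76 CPM or less in AT2 cells of every library.

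Leukocytes, which should lack most of these genes, served as the background of free RNA in the AT2-Tracer library. In its 1386 leukocytes Sftpc stood at 654 CPM, and 8 of the 10 genes at 3.93 CPM (Egfl6) or less. Ptgs1 stood at 71.8 CPM and was seen in 29.1% of leukocytes after thinning, and Fabp5 at 822 CPM in 70.3% of them. Fabp5 was therefore lower in Lyz1-low AT2 cells than in leukocytes, 261 against 822 CPM, a ratio of 0.318 (0.308 to 0.327). The other 9 were at least 2-fold higher in the AT2 cells, against 23% of 3687 genes higher and 23.8% lower by 2-fold. Most of these AT2 cells are among those on which the genes were chosen, so this count is a description. Fabp5 was among the 10 leading genes of a leukocyte cluster led by Arg1, Gpnmb and Mmp12, which carried macrophage or monocyte markers. Leukocytes made up 1386 cells of the AT2-Tracer, 88 of the BASC-Tracer and 31 of the Club-Tracer library at this depth. In AT2 cells Ptprc, the pan-leukocyte gene, had 26 UMIs (0.977 CPM) in AT2-Tracer, 0 UMIs in BASC-Tracer and 5 UMIs (0.556 CPM) in Club-Tracer cells. The part of leukocyte RNA in the Fabp5 values was not tested.

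Summed over the 10 genes, AT2 cells held 1750.3 CPM in the AT2-Tracer, 912 CPM in the BASC-Tracer and 352 CPM in the Club-Tracer library. After thinning to 5000 UMIs, the median AT2 cell held 8 UMIs of the 10 genes in the AT2-Tracer, 4 in the BASC-Tracer and 1 in the Club-Tracer library. Cells with none of them made up 0.809% of AT2-Tracer, 16.9% of BASC-Tracer and 29.5% of Club-Tracer AT2 cells. Cells in which at least 5 of the 10 genes were seen made up 45.7%, 14.96% and 0.289% in the same libraries. The AT2-Tracer lower quartile of 5 UMIs was reached by 40.2% of BASC-Tracer and 10.7% of Club-Tracer AT2 cells. The variance of the sum over its mean was 3.15 in the AT2-Tracer, 4.21 in the BASC-Tracer and 2.41 in the Club-Tracer library.

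**Figure D5:**
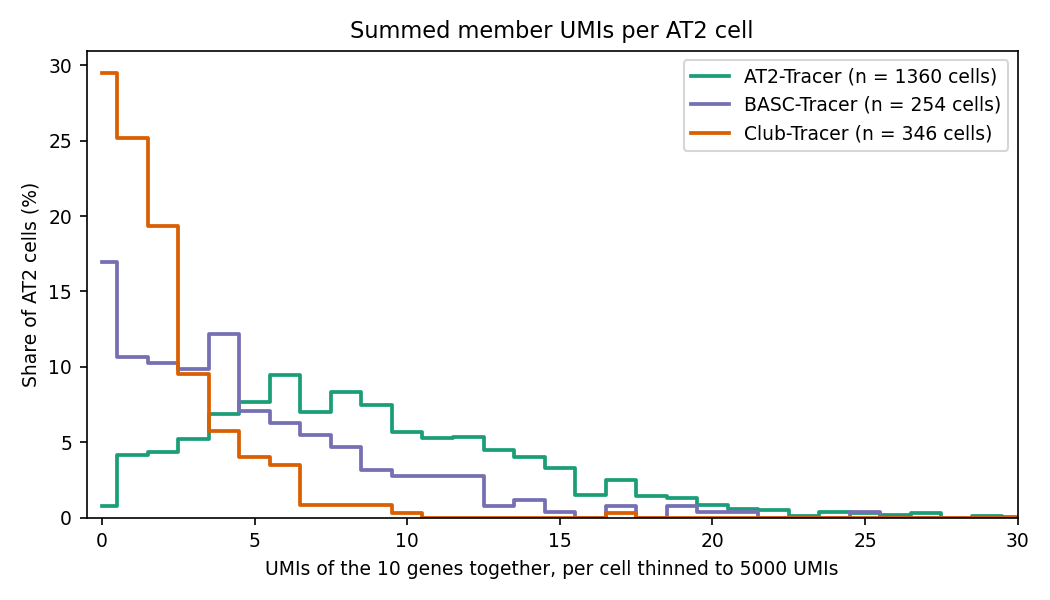
Share of AT2 cells (percent) by the number of UMIs of the 10 genes together, each cell thinned to 5000 UMIs, in the AT2-Tracer (n = 1360 cells), BASC-Tracer (n = 254 cells) and Club-Tracer (n = 346 cells) libraries. The AT2-Tracer curve is broad around its median of 8, the Club-Tracer curve is highest at 0 (29.5%), and the BASC-Tracer curve has 16.9% of cells at 0; the axis ends at 30 UMIs, and the highest AT2-Tracer cell held 36.

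Over the 254 BASC-Tracer AT2 cells the sum of the 10 genes had a Spearman correlation of -0.42 with Scgb1a1 UMIs, against -0.05 over AT2-Tracer and -0.26 over Club-Tracer AT2 cells. With the depth of the unthinned cell it was -0.0031 in the AT2-Tracer, -0.04 in the BASC-Tracer and -0.08 in the Club-Tracer library, and with the mitochondrial share of UMIs 0.25, 0.08 and 0.04 in the same order. Between pairs of the 10 genes the median correlation over cells was 0.06 in the AT2-Tracer, 0.16 in the BASC-Tracer and 0.02 in the Club-Tracer library. Ptgs1 and Egfl6 were the closest pair in AT2-Tracer (0.25) and BASC-Tracer AT2 cells (0.39), and Bex4 and Gpc3 in Club-Tracer AT2 cells (0.25). All these correlations are over cells of 1 library, share its depth and sparse counts, and are descriptions.

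The AT2 cells fell mainly in different clusters by library. A cluster led by Hc, Il33 and Itih4 held 61.9% of AT2-Tracer, 21.7% of BASC-Tracer and 0.578% of Club-Tracer AT2 cells, and a cluster led by Lyz1 and Col18a1 held 3.60%, 54.3% and 77.7%. AT2 cells were chosen by the Sftpc rule and not by cluster. The rest of them lay outside both clusters, a share that was largest in the AT2-Tracer library. Acoxl, Sgpp2 and Mme are among the 10 leading genes of the Hc-led cluster, so levels by cluster describe how it was built. Inside the Lyz1-led cluster the 10 genes summed to 1362 CPM in AT2-Tracer (49 cells), 643 CPM in BASC-Tracer (138 cells) and 369.7 CPM in Club-Tracer cells (269 cells). Inside the Hc-led cluster they summed to 2047 CPM in AT2-Tracer (842 cells), 1804 CPM in BASC-Tracer (55 cells) and 1359.7 CPM in Club-Tracer cells (2 cells).

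Cells on both sides of the limits that define AT2 cells were compared without a test. Cells just outside the Sftpc limit, with 3% to 4% of UMIs from Sftpc, held 1173 CPM of the 10 genes in the AT2-Tracer, 634 CPM in the BASC-Tracer and 121 CPM in the Club-Tracer library, and cells just inside, with 4% to 5%, held 1282, 649.6 and 190.1 CPM. At the Lyz1 limit, AT2-Tracer cells with 0.05% to 0.1% of UMIs from Lyz1 (13 cells) held 1430.0 CPM and those with 0.1% to 0.2% (14 cells) 1589 CPM.

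The pattern of each gene over 22 sums of library and class with at least 50 cells was set against the mean of the other 9. Gpc3 (Pearson r = 0.97) and Sgpp2 (0.95) lay closest to it, and Steap2 (0.66) and Fabp5 (0.41) farthest. Among 2659 other genes at 50 CPM or more in AT2-Tracer Lyz1-low AT2 cells, the 5 with the pattern most like the mean of all 10 were Slc26a4 (r = 0.97), Itih4 (0.94), Car2 (0.92), Tmem30a (0.91) and Il33 (0.90). Slc26a4, an anion exchanger, stood at 56.7 CPM in AT2-Tracer, 19.9 CPM in BASC-Tracer and 6.34 CPM in Club-Tracer AT2 cells. These r values are over sums that share libraries and depth and are descriptions. The AT2 cells of the AT2-Tracer and Club-Tracer libraries, on which the 10 genes were chosen, are among the sums. Likeness between the genes, and of other genes to their mean, is therefore partly set by the choice.

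Relatives of the 10 genes in the same family or pathway were read from lists, and unless stated the counts below cover genes at 50 CPM or more. For Gpc3, Steap2, Fabp5 and Bicc1 no other gene of their family list reached that level. Several relatives below it also stood higher in AT2-Tracer than in Club-Tracer AT2 cells, such as Fabp12 (7.59, 3.98 and 0.445 CPM in AT2-Tracer, BASC-Tracer and Club-Tracer AT2 cells), Steap1 (12.6, 5.30 and 2.22 CPM) and Gpc4 (20.3, 13.3 and 7.56 CPM). Others did not, such as Gpc1 (4.51, 7.23 and 5.34 CPM in the same libraries) and Steap4 (1.54, 1.81 and 1.78 CPM). The lowest of these levels rest on few UMIs, and no trend of a whole family is read from them. Of 20 listed genes of prostaglandin synthesis and signalling, 6 reached 50 CPM in AT2 cells of the AT2-Tracer or Club-Tracer library, and 2 were 2-fold higher in AT2-Tracer cells: Ptgs1, and Slco2a1, the prostaglandin transporter, at 162 CPM in AT2-Tracer, 105 CPM in BASC-Tracer and 65.5 CPM in Club-Tracer AT2 cells. Ptgs2 (cyclooxygenase 2) ran the other way, at 40.6 CPM in AT2-Tracer, 74.8 CPM in BASC-Tracer and 93.6 CPM in Club-Tracer AT2 cells, and was the 1 gene of the list at 50 CPM or more that was 2-fold lower in the AT2-Tracer than in the Club-Tracer library; below that level Pla2g4a was lower too (3.98, 9.76 and 9.57 CPM in the same libraries). The synthase Ptges3 stood at 120.5 CPM in AT2-Tracer, 129 CPM in BASC-Tracer and 113 CPM in Club-Tracer AT2 cells. Of 19 genes of sphingosine 1-phosphate metabolism, 5 reached 50 CPM and Sgpp2 was the 1 gene 2-fold higher in AT2-Tracer than in Club-Tracer AT2 cells. Plpp3, a phosphatase of lipid phosphates, was 2-fold lower, at 2.97 CPM in AT2-Tracer, 18.3 CPM in BASC-Tracer and 51.7 CPM in Club-Tracer AT2 cells, while Cers2 (287, 258 and 215 CPM) and Asah1 (77.1, 68.3 and 53.7 CPM) were within 2-fold.

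Of 13 genes of peroxisomal fatty acid oxidation 7 reached 50 CPM and Acoxl alone was 2-fold higher in AT2-Tracer than in Club-Tracer AT2 cells. The list's highest genes, Scp2 (655, 631 and 519.96 CPM), Abcd3 (225, 208 and 124 CPM) and Acaa1a (153, 151 and 156 CPM in AT2-Tracer, BASC-Tracer and Club-Tracer AT2 cells), were within 2-fold. Of 11 Bex and Tceal genes 4 reached 50 CPM, and Bex4 alone was 2-fold higher, while Bex3 stood at 341, 241 and 219.7 CPM and Tceal9 at 638, 526 and 507 CPM in the AT2-Tracer, BASC-Tracer and Club-Tracer AT2 cells. Of 9 genes of iron and copper uptake 5 reached 50 CPM and none was 2-fold higher in the AT2-Tracer library. Fth1, the ferritin heavy chain, stood at 3897, 3554 and 3837 CPM in the AT2-Tracer, BASC-Tracer and Club-Tracer AT2 cells. In the same libraries Ftl1 stood at 3642, 3726 and 3850 CPM and Slc31a1 at 89.9, 102 and 100 CPM. Cp, which encodes ceruloplasmin, was 2-fold lower in the AT2-Tracer than in the Club-Tracer library, at 9.55 CPM in AT2-Tracer, 32.0 CPM in BASC-Tracer and 69.0 CPM in Club-Tracer AT2 cells. Gpc3 was the 1 glypican of 6, Steap2 the 1 Steap gene of 4, Fabp5 the 1 fatty acid binding protein of 9, and Bicc1 the 1 gene of its list of 6 to reach 50 CPM. Mme was 2-fold higher and its relative Ece1 was not, at 58.6 CPM in AT2-Tracer, 48.8 CPM in BASC-Tracer and 37.8 CPM in Club-Tracer AT2 cells. Egfl6 was 2-fold higher, and Npnt, another matrix protein with EGF repeats, was not (308, 359.6 and 298.5 CPM in the same libraries). The lists were drawn up by hand with the members' own results known, so these counts are descriptions. The 2-fold share of all genes in these contrasts is that given above (4.15%).

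The longest transcript of Bex4 shares 98.9% identity over 265 bases with Bex1, which stood at 6.69 CPM in AT2-Tracer, 2.53 CPM in BASC-Tracer and 1.56 CPM in Club-Tracer AT2 cells, and near copies of Bex4 were also found in Gm12245 and Gm4322. Bicc1 shares 238 bases with 4930533K18Rik and Sgpp2 shares 250 bases with Farsb, each at 100% identity. The strand of these matches was not recorded. Counts of Bex4, Bicc1 and Sgpp2 could be uncertain where reads match both genes of a pair, which was not tested. Bex4, Gpc3 and Egfl6, 3 of the 10, are X-linked, while 78 of the 2895 genes compared between AT2-Tracer and Club-Tracer AT2 cells (2.69%) are. Of these 78 genes 6 were 2-fold higher in AT2-Tracer AT2 cells, and 3 of the 6 are Bex4, Gpc3 and Egfl6, chosen on this contrast. That is 7.69% of X-linked genes, against 4.05% of the other genes, with median log2 ratios of 0.245 and 0.164. Whether X-linked genes differ as a group was not tested.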

How the data were processed

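Single-cell UMI count matrices of the 3 sorted libraries were used as the authors deposited them, with whole-number counts per gene and barcode, not normalized, per the file headers. Cell Ranger 6.1.1 and the build mm10 are named in the submitters' processing notes; the release of the annotation: not given in the sources used here. Splitting of reads between near-identical genes and free RNA in droplets could change such counts.

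Barcodes with fewer than 500 genes (2686, 959 and 1872 in the AT2-Tracer, BASC-Tracer and Club-Tracer libraries) or more than 15% mitochondrial UMIs (339, 78 and 236) were left out. Doublets were marked with Scrublet in each library. Its automatic threshold (1.68%) was used for the AT2-Tracer library. In the BASC-Tracer and Club-Tracer libraries it marked 0.139% and 0.0300%, under 0.5%, and the highest scores were taken instead, at a share that grows with the number of barcodes (102, 17 and 89 marked in all). This left 5758, 1385 and 3109 of 8884, 2439 and 5304 barcodes. Kept cells were clustered together (2000 variable genes, 30 principal components, 15 neighbours, Leiden resolution 1, 24 clusters). A cluster was named when at least 4 markers of a type were among its top 50 genes by fold and at least 2 times as many as of the next type. A cluster with 4 AT1 markers stayed unnamed for its low UMI counts (297, 81 and 117 cells). Names were rebuilt here and may differ from the authors' own.

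UMIs were summed per library and class and scaled to CPM. Intervals are exact Poisson (levels), exact conditional (ratios) and Clopper-Pearson (shares) 95% intervals, and 3 counts were taken as the upper limit of a count of 0. Genes at 50 CPM or more in either group formed the background. With 1 library for each lineage no test was run. The calculation was checked on simulated data. Every one of the 10 genes is named in the main comparisons, and of each family or pathway list the highest genes by level are named. Ptgs2, Pla2g4a, Plpp3, Cp, Ece1, Npnt, Fabp12, Steap1, Steap4, Gpc1, Gpc4 and Bex1 were added after their values were seen, as were the motifs shown. The 10 genes and the lists were chosen with earlier results of these data known. No per-sample column was left unused (0). Alternatives were other limits for Sftpc, Lyz1, UMIs and mitochondrial share, doublets kept, other scaling, thinning to 5000 UMIs and an added 20 CPM. Clustering used scanpy 1.11.5 with anndata 0.12.19, python-igraph 0.11.9 and scikit-learn 1.9.0; sums and intervals used Python 3.11.15 with scipy 1.17.1, pandas 2.3.3 and numpy 2.4.6, and plots matplotlib 3.10.9. Near copies were found by matching transcripts with BLAST.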

Additional observations from a re-analysis of the deposited data

Results flagged for a closer look

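Bex4 was higher in Lyz1-low than in Lyz1-high AT2 cells of the AT2-Tracer library, with a ratio of 1.17, and lower in those of the BASC-Tracer library, with a ratio of 0.596. Fabp5 was lower in Lyz1-low than in Lyz1-high AT2 cells of the AT2-Tracer and BASC-Tracer libraries, with ratios of 0.647 and 0.543, and higher in those of the Club-Tracer library, with a ratio of 3.38. These genes were picked out because the counting intervals of their ratios lay on opposite sides of 1 in different libraries. With 1 library for each lineage the differences between libraries were not tested. The Lyz1-high classes held 90, 17 and 55 cells in the AT2-Tracer, BASC-Tracer and Club-Tracer libraries, and the Club-Tracer Lyz1-high cells held 31 UMIs of Fabp5.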

How the results depend on the processing

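No paired analysis was possible because each lineage has 1 library, so the groups share fewer than 2 replicate numbers, and leaving out a replicate was not possible for the same reason. The count of the 10 genes at 2-fold or more over BASC-Tracer AT2 cells, 7 as reported, was 1 with 20 CPM added to both levels, which by construction narrows the ratios of genes at low levels, and 6 or 7 under the other settings. The count over Club-Tracer AT2 cells was 10 under all 11 settings tried, but the 10 genes were chosen on that contrast. The count between Lyz1-low and Lyz1-high AT2-Tracer cells was 0 under 13 settings. In Lyz1-high cells the count was 9 or 10 over the Club-Tracer library and 5 to 7 over the BASC-Tracer library. The count over transitional-like cells was 8 under 14 settings, and over AT1-like cells 6 to 8. No called ratio changed its direction (0 reversed). Depth limits the Club-Tracer Lyz1-high values, where Gpc3, Bicc1 and Mme had 1, 3 and 5 UMIs, and the BASC-Tracer Lyz1-high class of 17 cells.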
